A study of Mus musculus with 12 samples.

Results

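Motile cilia are the beating hairs of airway epithelium, and the genes that build them were followed here in mouse lung after abdominal sepsis. The set is a written list of 39 genes for the axoneme, its assembly factors and transcripts that mark ciliated cells. A gene was represented by 1 probe set, the one with the highest mean log2 signal over the 12 arrays among those the platform annotation pairs with that gene's symbol alone, older symbols included. Of the 39, 38 were on the array and Sntn was not matched. Of these 38, 36 passed the filter on low signal and were tested, out of 11862 genes with a tested probe set and 18193 genes with any. Spag17 and Iqcg were below the filter, so they have levels here and no test. The listed gene Spag6 was read from the probe set annotated to Spag6l, a close paralog whose older symbol is Spag6, and is called Spag6l here. The probe set annotated to Spag6 itself read between 0.168 and 4.26 on the 12 arrays and was below the filter.

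Airway motile cilia grow from basal bodies at the apical surface of ciliated cells and clear mucus from the airways. Their core, the axoneme, is a ring of microtubule doublets around a central pair. Outer and inner dynein arms drive the doublets past each other, radial spokes and the central pair control the beat, and the nexin links hold the ring together. FOXJ1 and the RFX factors switch on the genes for these parts, and RFX proteins bind a promoter element called the X-box.

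Each of the 12 arrays held RNA from whole lung, taken 8 h after surgery from mice aged 8 to 10 weeks. The surgery was cecal ligation and puncture (CLP), which lets gut bacteria into the abdomen and is a model of sepsis, or a sham operation. The 4 groups of 3 arrays were wild type after sham, wild type after CLP, and mice labelled PPTA knockout after each surgery. PPTA is an older name of Tac1, which encodes the precursor of substance P. Only the wild type has a strain on its labels (Balb/c), so strain and genotype cannot be told apart. Triplicates are named without a statement that each was a different mouse, so the p-values cover the variation among these arrays, part of which may be technical.

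The Tac1 probe set with the higher signal ran from 2.80 to 16.1 on the wild-type arrays and from 337 to 530.3 on the arrays labelled knockout. The values of this probe set go against those labels. The other Tac1 probe set was low on all arrays, from 1.26 to 16.0 in wild type and from 4.85 to 10.3 on the arrays labelled knockout. The mice labelled knockout are therefore called knockout-labelled throughout. Every array had the same trimmed mean of 150.0, and array medians ran from 31.1 to 38.4. Markers of lung epithelium were present: all 11 alveolar type 2 genes on the array were tested, with a mean signal between 5206 and 6103 on every array. The 3'/5' signal ratio of beta-actin, a sign of RNA quality, ran from 1.47 to 1.63 on the wild-type arrays, from 1.47 to 1.59 on the knockout-labelled sham arrays and from 1.28 to 1.45 on the knockout-labelled CLP arrays. The same ratio of Gapdh was 0.729, 0.799 and 0.763 on the knockout-labelled sham arrays, all below the wild-type arrays (0.800 to 0.913), and 0.678 to 0.843 on the knockout-labelled CLP arrays. The part of RNA quality in the ciliary differences was not tested.

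Promoters are shown because most of those matched to a member held the letters of the X-box. In the RefSeq windows of assembly GRCm38.p6, from 250 bases before to 50 after each gene's start, 28 of the 36 tested members had an entry. The half-site letters GTTGCC, or their reverse complement GGCAAC, lay in a window of 18 of the 28, or 64.3%. The same letters lay in a window of 3821 of 27025 genes, or 14.1%, and of 8 of 30 other axoneme genes, or 26.7%. The forkhead motif GTAAACA, on either strand, was in 2 of the 28 members (7.14%) and in 4.05% of all genes. The CCAAT box was in 11 members (39.3%) and in 41.1% of genes. A gene with several start sites was counted once if any of its windows held the letters, and the motifs were searched separately, overlaps included. A match is a description of the letters, not evidence of binding. The 250 bases before the start are printed for 3 called members, those with the smallest p in any comparison among members with a half-site match upstream of the start. They run 5′ to 3′ on the gene's strand, with the half-site letters in capitals. The match began 105 bases before the start in Mlf1 (chr3:67373847-67374096, plus strand), 51 in Dynlrb2 (chr8:116504765-116505014, plus strand) and 34 in Enkur (chr2:21205366-21205615, minus strand).
Mlf1: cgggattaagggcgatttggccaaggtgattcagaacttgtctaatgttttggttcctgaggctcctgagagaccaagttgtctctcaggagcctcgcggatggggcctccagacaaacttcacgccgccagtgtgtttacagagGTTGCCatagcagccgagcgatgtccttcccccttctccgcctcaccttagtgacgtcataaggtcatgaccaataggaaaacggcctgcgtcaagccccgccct
Dynlrb2: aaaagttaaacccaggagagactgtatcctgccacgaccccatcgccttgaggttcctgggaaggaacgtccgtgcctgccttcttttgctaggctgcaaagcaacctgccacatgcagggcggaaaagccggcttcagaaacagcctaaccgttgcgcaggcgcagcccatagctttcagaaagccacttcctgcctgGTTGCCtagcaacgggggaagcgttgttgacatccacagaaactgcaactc
Enkur: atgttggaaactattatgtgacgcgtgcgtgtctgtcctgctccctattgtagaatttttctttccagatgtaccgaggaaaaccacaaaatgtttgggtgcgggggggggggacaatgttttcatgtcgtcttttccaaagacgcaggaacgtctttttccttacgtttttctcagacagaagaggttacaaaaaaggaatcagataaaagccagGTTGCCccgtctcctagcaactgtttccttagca

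Across the 12 arrays most of the 36 tested members followed 1 pattern. They were high on knockout-labelled sham arrays 1 and 2, and on the third array of that group their median was near the wild type. The mean of arrays 1 and 2 was 1.08 to 2.69 times the wild-type sham mean, with a median of 2.01, and was over 1.5 times it for 31 of 36 members. For array 3 the median ratio was 1.08, with a range of 0.605 to 1.71. Arrays 1 and 2 both lay above each of the other 10 arrays for 33 of 36 members, or 91.7%, against 8.2% of all probe sets tested; the exceptions were Dnah9, Dnaic1 and Tppp3. Array 3 was the lowest of its group for 36 of 36 members, against 41.7% of probe sets. In log2 units from the wild-type sham mean, the members' median stood at 0.84, 1.02 and 0.11 on the knockout-labelled sham arrays 1 to 3. It was between -0.12 and 0.10 on the 6 wild-type arrays, and -0.13, -0.25 and -0.45 on the knockout-labelled CLP arrays.

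**Figure D1:**
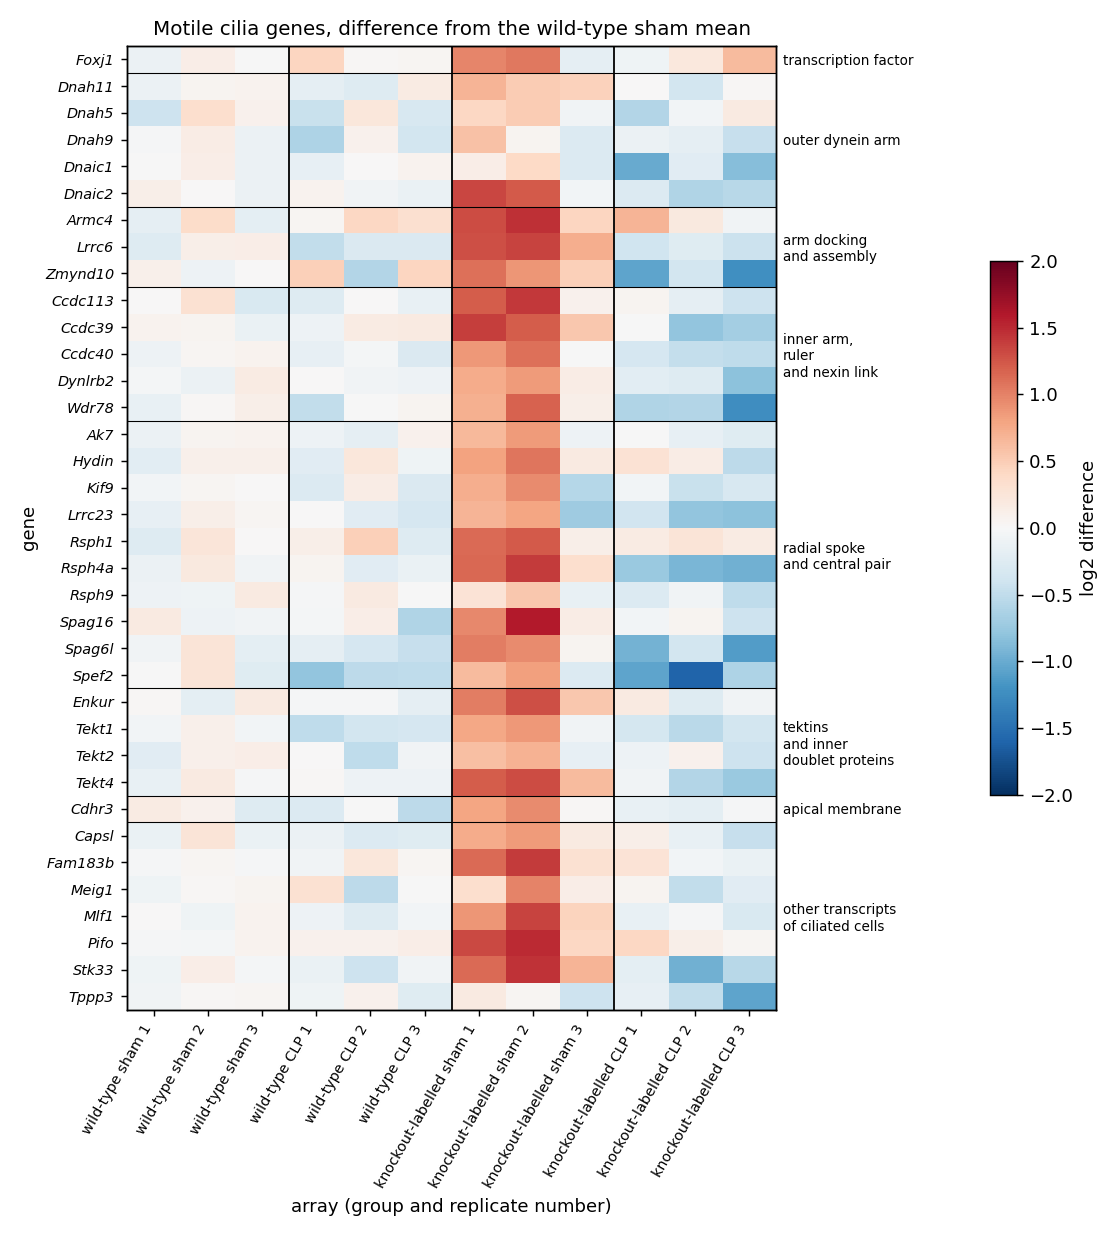
Difference of each tested motile cilia gene (rows, grouped by role) from its mean on the 3 wild-type sham arrays, in log2(signal + 3.47), on each of the 12 arrays (columns). Knockout-labelled sham arrays 1 and 2 form the band of high values, with medians of 0.84 and 1.02, and array 3 of that group has a median of 0.11.

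The coefficient of variation of a member within its group had a median of 10.0% in wild-type sham, 11.2% in wild-type CLP, 31.7% on the knockout-labelled sham arrays and 18.0% on those after CLP. Over all probe sets tested the same medians were 9.41%, 9.32%, 16.2% and 16.2%. In knockout-labelled sham the members' median was well above that of all probe sets, and in the other groups both medians lay within 2 percentage points of each other. In whole lung, fewer ciliated cells and less RNA per ciliated cell cannot be told apart.

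CLP did not move the motile cilia genes past the threshold in wild-type lung. With limma and Benjamini-Hochberg adjustment over all 24574 probe sets, none of the 36 had an adjusted p under 0.05 in either direction, and none an unadjusted p under 0.05. The background was 0.814% of probe sets called up and 0.134% called down. The members' log2 differences, CLP minus sham, ran from -0.61 (Spef2) to 0.26 (Armc4), with a median of -0.10 against -0.05 over all probe sets, and the median was 0.01 when arrays were centred on their medians. The 2 groups of arrays did not overlap for 4 members: Tekt1, Spef2 and Lrrc6 were lower and Pifo higher after CLP. That is 3 of 36 lower against a background of 15.0% and 1 of 36 higher against 9.35%. Tekt1, a tektin of the doublet wall, read 71.4, 80.0 and 71.4 on the wild-type sham arrays and 51.0, 56.8 and 58.1 after CLP (adjusted p = 0.694).

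In the knockout-labelled groups, motile cilia genes fell after CLP. Of 36 members, 26 were called lower and none higher (31 lower and none higher at an unadjusted p under 0.05), where 18.8% of all probe sets were called lower and 10.4% higher. All 36 log2 differences were below 0, also under quantile normalisation and median centring. They ran from -1.83 to -0.36, with a median of -0.91, against a median of -0.12 and 60.8% below 0 over all probe sets. Arrays of the 2 groups did not overlap for 23 members, all lower, against a background of 23.1%. Centring arrays on their medians moved the median of all probe sets from -0.12 to 0.10 and turned the split of all calls from 2553 higher and 4619 lower to 5314 higher and 2236 lower; the members' count was then 18, all lower. On the same arrays, 9 of 11 tested neutrophil genes were called higher in this comparison. In wild type 8 were, where 0.814% of all probe sets were called higher. The part of neutrophil genes in the ciliary differences was not tested.

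The outer dynein arm is the main motor of the beat. Of its 5 members, Dnaic2, Dnah11 and Dnaic1 fell. Dnaic2, an intermediate chain, read 213, 197 and 79.2 on the knockout-labelled sham arrays and 67.2, 52.8 and 54.7 after CLP, a log2 difference of -1.32 ± 0.29 (SE; adjusted p = 0.00520). Its wild-type arrays read 89.1, 82.9 and 75.3 after sham and 86.1, 78.4 and 74.9 after CLP, so sham array 3 sat among the wild-type values and all 3 CLP arrays below them. Dnaic1, the other intermediate chain, had 43.6, 53.4 and 32.0 after sham and 18.0, 33.4 and 20.4 after CLP, with sham array 3 below CLP array 2. Its log2 difference was -0.77 ± 0.25 (adjusted p = 0.0341). A second Dnaic1 probe set was also lower but was not called (-0.93 ± 0.34, adjusted p = 0.0548). The heavy chain Dnah11 had 75.7, 67.3 and 64.9 after sham and 46.4, 35.1 and 46.7 after CLP (-0.66 ± 0.18, adjusted p = 0.0168), and here the groups did not overlap. The heavy chains Dnah9 (-0.37 ± 0.23) and Dnah5 (-0.44 ± 0.28) did not pass, with adjusted p of 0.230 and 0.258.

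Each of the 3 genes for docking and assembly of the arms fell. Zmynd10, a cytoplasmic assembly factor of dynein arms, read 81.7, 69.5 and 51.5 after sham and 15.7, 27.2 and 13.5 after CLP, a log2 difference of -1.70 ± 0.31 (adjusted p = 0.00220). Lrrc6, another assembly factor, read 81.2, 85.2 and 53.6 after sham and 22.7, 25.9 and 22.2 after CLP (-1.48 ± 0.22, adjusted p = 0.000732). In both genes the 3 sham arrays stood above the 3 CLP arrays. Lrrc6 exceeded the array median only on the 3 knockout-labelled sham arrays. It passed the filter through that group alone, so its call and lack of overlap are not independent of the filter. Armc4, a part of the outer arm's docking machinery, had 136, 152 and 72.7 after sham and 86.7, 61.0 and 49.9 after CLP, and the groups overlapped because sham array 3 lay below CLP array 1 (-0.80 ± 0.28, adjusted p = 0.0470).

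All 5 tested genes of the inner arm, the molecular ruler and the nexin link fell, with no overlap between the groups in any of them. Ccdc39, which with Ccdc40 forms the ruler that spaces the arms, read 310.1, 275 and 171 after sham and 116, 66.6 and 72.0 after CLP, a log2 difference of -1.53 ± 0.23 (adjusted p = 0.000767). Its wild-type arrays lay between 107 and 133 in both surgeries. Ccdc40 changed by -1.09 ± 0.23 (adjusted p = 0.00451). The dynein intermediate chain Wdr78 read 102, 142 and 65.8 after sham and 38.8, 38.97 and 23.7 after CLP (-1.48 ± 0.27, adjusted p = 0.00216). Dynlrb2, a light chain, had 1348, 1460.1 and 892 after sham and 691, 673 and 455 after CLP (-1.01 ± 0.19, adjusted p = 0.00210), beside 779, 744 and 896 on the wild-type sham arrays. For Wdr78 and Dynlrb2 the 3 CLP arrays were below all 6 wild-type arrays. Ccdc113, a coiled-coil protein of the ciliary base and axoneme, changed by -1.09 ± 0.30 (adjusted p = 0.0176).

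Among 10 tested genes of the radial spokes and central pair, 6 fell. Rsph4a, a protein of the spoke head, had the lowest adjusted p and the largest difference of any member. It read 187, 224 and 105 on the knockout-labelled sham arrays and 47.9, 41.96 and 40.6 after CLP, a log2 difference of -1.83 ± 0.23 (adjusted p = 0.000262). The wild-type arrays read 75.7, 94.5 and 78.4 after sham and 85.5, 69.8 and 74.95 after CLP, so all 3 knockout-labelled sham arrays were above the wild type and all 3 CLP arrays below it. The other spoke-head genes did not pass: Rsph1 read 376, 405 and 185 after sham and 191, 205 and 192 after CLP (adjusted p = 0.0939), with sham array 3 below each CLP array. Rsph9 had an adjusted p of 0.0526 at a log2 difference of -0.51 ± 0.18.

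Spag6l, a central pair protein, read 143, 136 and 71.2 after sham and 34.0, 52.6 and 29.8 after CLP (-1.48 ± 0.27, adjusted p = 0.00196). Spef2, a central pair protein also needed in sperm tails, read 60.3, 69.2 and 30.7 after sham and 16.3, 10.1 and 23.3 after CLP (-1.49 ± 0.32, adjusted p = 0.00517). Neither gene's groups overlapped. Spef2 exceeded the array median on 4 arrays, knockout-labelled sham arrays 1 and 2 among them. Without these it would not have passed the filter, so its call and lack of overlap are not independent of the filter. Spag16, of the central pair, changed by -1.03 ± 0.31 (adjusted p = 0.0253) without overlap. Lrrc23, a radial spoke protein, changed by -0.91 ± 0.31 (adjusted p = 0.0402) and Ak7, an adenylate kinase, by -0.60 ± 0.20 (adjusted p = 0.0368), and both overlapped through sham array 3. Hydin, a large central pair protein, had 101, 121 and 64.2 after sham and 69.0, 62.7 and 37.9 after CLP and did not pass (-0.72 ± 0.26, adjusted p = 0.0554). The kinesin Kif9 read 89.9, 106 and 34.7 after sham and 50.9, 38.3 and 41.8 after CLP, again with sham array 3 below each CLP array, and was not called.

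**Figure D2:**
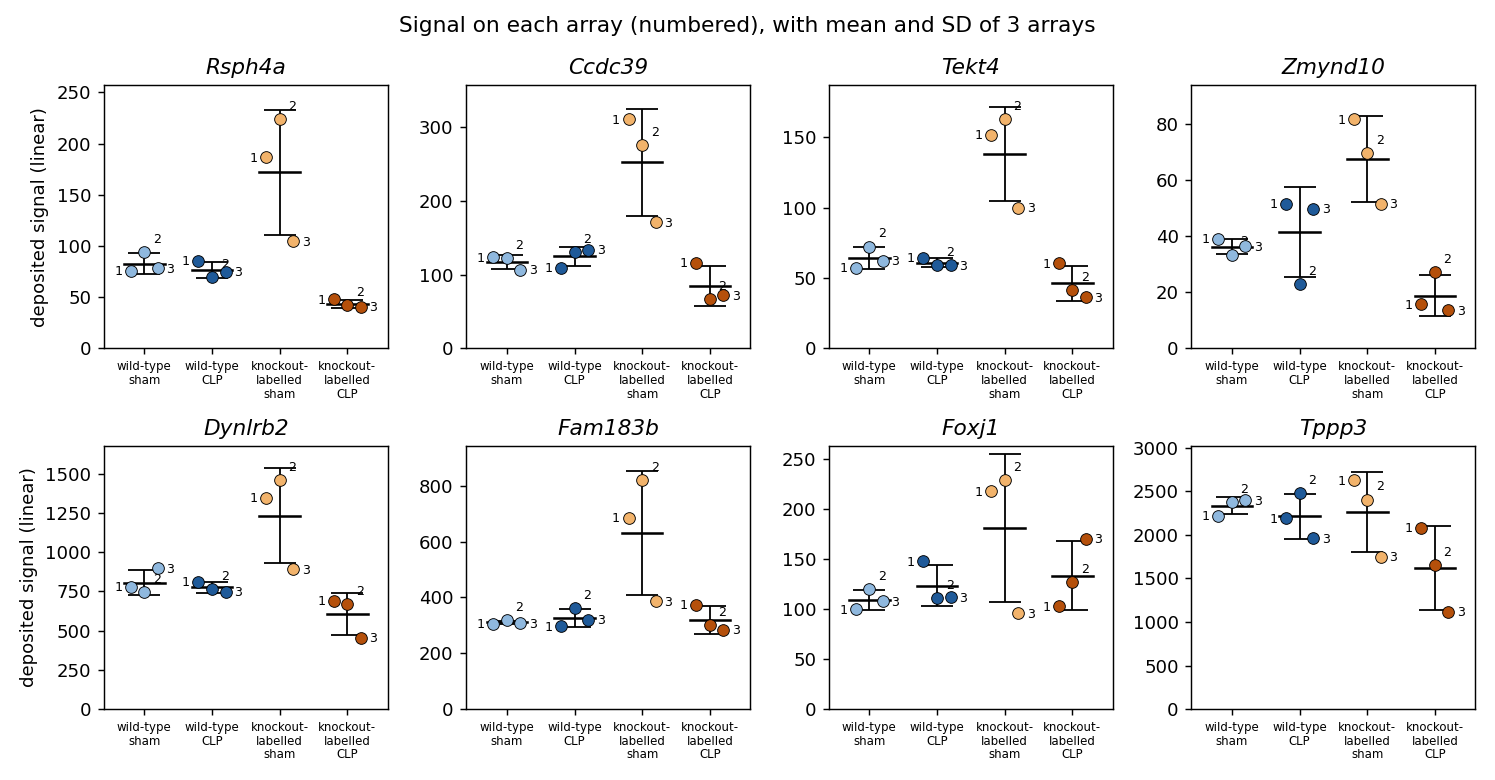
Deposited signal (linear scale, from 0) of 8 motile cilia genes on each array, numbered by replicate, with the mean as a bar and the SD of 3 arrays. Rsph4a reads 187, 224 and 105 on the knockout-labelled sham arrays and between 40.6 and 47.9 after CLP, whereas Foxj1 and Tppp3 overlap between the groups.

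Of the tektins and inner doublet proteins, 3 of 4 fell. Tekt4 read 152, 163 and 100.05 after sham and 60.4, 41.3 and 36.5 after CLP (-1.52 ± 0.22, adjusted p = 0.000527), and 57.1, 72.3 and 62.3 on the wild-type sham arrays. Tekt1 changed by -0.94 ± 0.22 (adjusted p = 0.00694). Enkur, a protein of the inner doublet junction, read 170.0, 206 and 121 after sham and 93.3, 67.7 and 78.4 after CLP (-1.001 ± 0.19, adjusted p = 0.00280). The groups of these 3 genes did not overlap. Tekt2 overlapped and was not called (-0.53 ± 0.25, adjusted p = 0.125).

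Cdhr3, a cadherin of the ciliated cell's apical surface, read 175, 195 and 101 after sham and 89.9, 86.2 and 97.9 after CLP (-0.71 ± 0.23, adjusted p = 0.0337). Sham array 3 exceeded the highest CLP array by little. Among 7 other transcripts of ciliated cells, 5 fell: Stk33, a protein kinase (-1.66 ± 0.25, adjusted p = 0.000699), Mlf1 (-1.06 ± 0.19, 0.00190), Fam183b (-0.92 ± 0.22, 0.00838), Pifo (-0.89 ± 0.22, 0.0104) and Capsl (-0.75 ± 0.20, 0.0136). Stk33 exceeded the array median on 5 arrays, the 3 knockout-labelled sham arrays among them. Without that group it would not have passed the filter, so its call and lack of overlap are not independent of the filter. Pifo, which acts at the ciliary base, read 396, 446 and 211 after sham and 210.2, 169.6 and 162 after CLP, with its wild-type sham arrays at 154, 152 and 165. Its CLP arrays thus lay within or above the range of the wild-type sham arrays. Meig1, best known from sperm formation, had an adjusted p of 0.0526 at -0.71 ± 0.25. Tppp3, a tubulin-binding protein, read 2628, 2405 and 1749 after sham and 2081, 1658 and 1116 after CLP and overlapped (-0.51 ± 0.20, adjusted p = 0.0697).

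Foxj1, the transcription factor of motile ciliogenesis, had the smallest difference. It read 217, 229 and 95.7 on the knockout-labelled sham arrays and 103, 127 and 170.2 after CLP (-0.36 ± 0.29, adjusted p = 0.363). Its wild-type arrays read 99.9, 119.9 and 108 after sham and 148, 111 and 112 after CLP. Sham array 3 was below all 3 CLP arrays, so its groups overlapped.

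**Figure D3:**
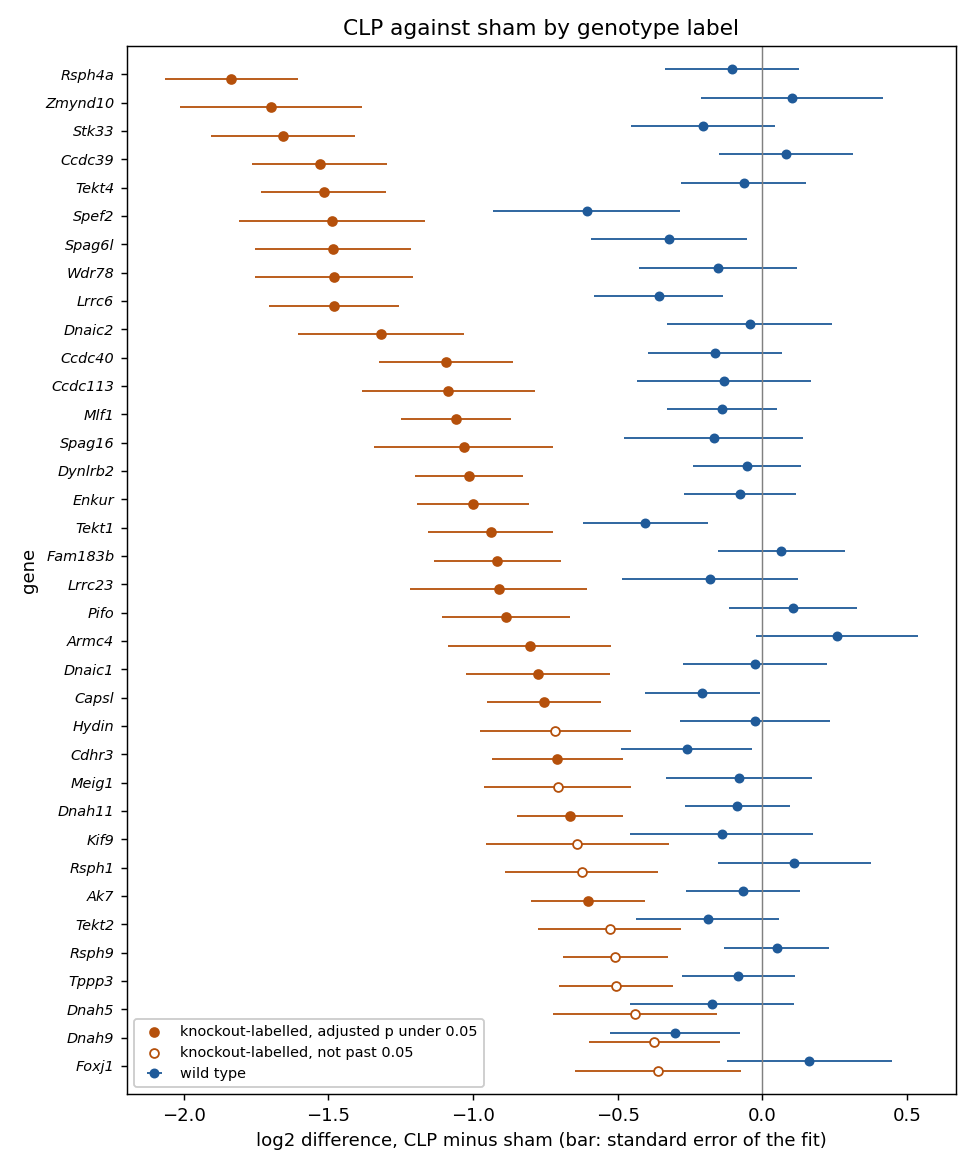
Log2 difference, CLP minus sham, of the 36 tested motile cilia genes in the knockout-labelled groups (orange, filled where the adjusted p is under 0.05) and in wild type (blue); bars are standard errors of the fit. The knockout-labelled values run from -1.83 to -0.36 and the wild-type values from -0.61 to 0.26.

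How many members were called depended on single arrays. The count of 26 was 17 without knockout-labelled sham array 1, 17 without array 2 and 33 without array 3. With only the 2 groups compared in the fit it was 13. Of the 26, 17 stayed past the threshold in every run without 1 array that tested them (12 runs each, and 9 for Lrrc6). Lrrc6 was not tested in the runs without a knockout-labelled sham array, because it passed the filter only through those arrays. Stk33 and Spef2 are among the 17, and neither would have passed the filter without the knockout-labelled sham arrays. The other 9 of the 26 lost the call in at least 1 run. Without knockout-labelled sham array 2, the adjusted p was 0.160 for Lrrc23, 0.173 for Armc4, 0.150 for Ak7, 0.134 for Cdhr3, 0.130 for Dnaic1, 0.107 for Spag16, 0.0783 for Ccdc113 and 0.0590 for Capsl. For Dnah11 it was 0.0687 without knockout-labelled CLP array 2.

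After sham surgery, motile cilia genes were higher in the knockout-labelled lungs than in wild type, most on arrays 1 and 2. Of 36 members, 10 were called higher and none lower (25 higher and none lower at an unadjusted p under 0.05), against 4.48% and 3.86% of probe sets. The median log2 difference was 0.66, against 0.01 over all probe sets, and 35 of 36 were above 0 under each of the 3 scalings, the exception being Tppp3 (-0.07). The arrays did not overlap for 14 members, all higher, against a background of 15.3%, and the 10 called were among these 14. Array 3 lay above every wild-type sham array for those 14 members, within their range for 13 and below all of them for 9. Over all probe sets tested the shares above, within and below were 39.5%, 22.7% and 37.8%. The 38.9% of members above was thus no more than the background for array 3. Median centring turned the split of all calls from 1101 higher and 949 lower to 878 higher and 1365 lower and left 10 members called.

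The 10 came from most roles. In arm docking and assembly they were Lrrc6 (1.12 ± 0.22, adjusted p = 0.00788) and Armc4 (1.07 ± 0.28, 0.0335). Lrrc6 passed the filter only through the knockout-labelled sham arrays, so its call here is not independent of the filter. Enkur (0.95 ± 0.19, 0.00898) and Tekt4 (1.05 ± 0.22, 0.00941) represented the inner doublet. Ccdc39 (1.04 ± 0.23, 0.0154) was called for the ruler and Rsph4a (0.96 ± 0.23, 0.0220) for the spokes. Pifo (1.08 ± 0.22, 0.00926), Mlf1 (0.90 ± 0.19, 0.0113), Stk33 (1.09 ± 0.25, 0.0171) and Fam183b (0.95 ± 0.22, 0.0182) were the other transcripts. Without the knockout-labelled sham arrays Stk33 would not have passed the filter, so its call here is not independent of the filter either. Fam183b read 685, 820.2 and 385 on the knockout-labelled arrays and 306, 318 and 307 on the wild-type arrays, and Lrrc6 read 81.2, 85.2 and 53.6 on the knockout-labelled arrays and 25.4, 34.2 and 34.6 on the wild-type arrays. None of the outer dynein arm genes was called, and none had an unadjusted p under 0.05 except Dnah11 and Dnaic2 (adjusted p = 0.0851 and 0.0961).

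The count of 10 was 4 without knockout-labelled sham array 1, 4 without array 2 and 25 without array 3. It was 6 without wild-type sham array 1, 5 without wild-type sham array 3 and 5 with only the 2 groups in the fit. Enkur, Pifo and Tekt4 were called in all 12 runs without 1 array and Lrrc6 in the 9 that tested it. The runs that did not test Lrrc6 were those without a knockout-labelled sham array. It passed the filter only through those arrays, so its stability here is not independent of the filter. The highest adjusted p was 0.125 for Armc4, 0.0680 for Ccdc39 and 0.0656 for Fam183b, each without wild-type sham array 3. It was 0.0868 for Rsph4a without wild-type sham array 1, 0.0519 for Mlf1 without wild-type sham array 2 and 0.0702 for Stk33 without knockout-labelled sham array 2.

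**Figure D4:**
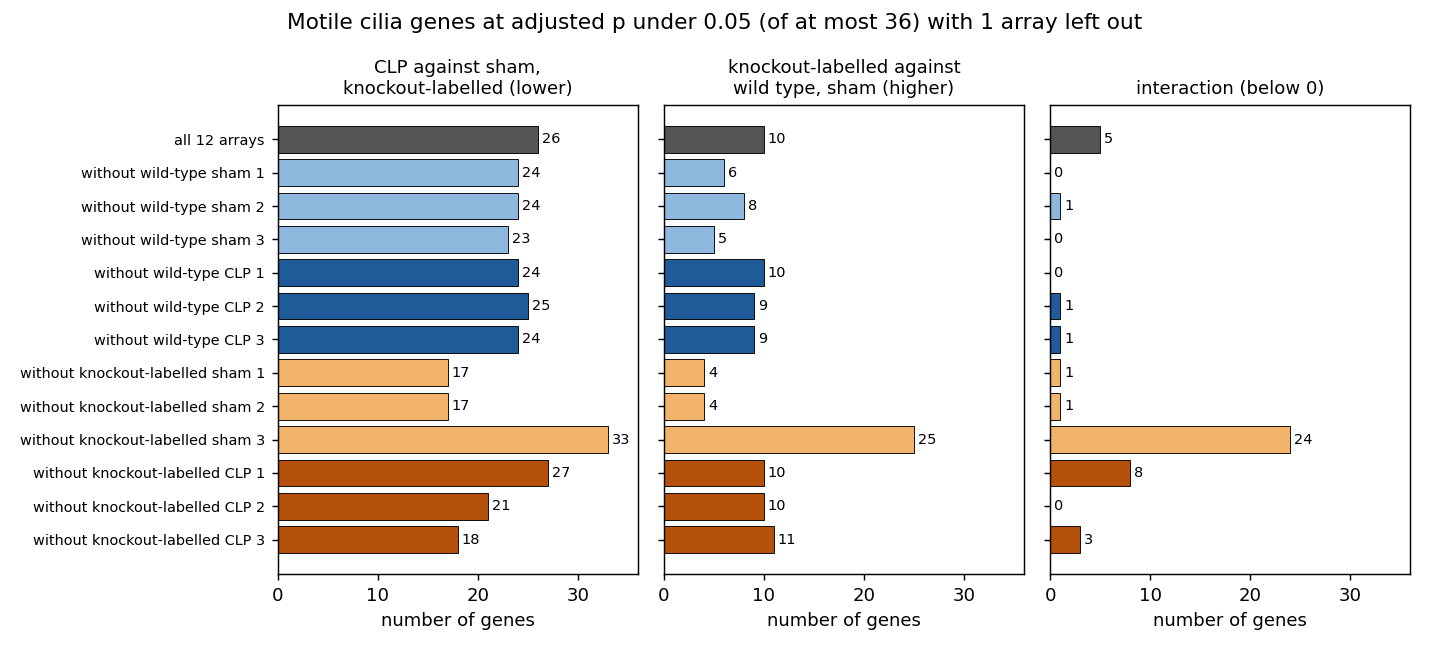
Number of motile cilia genes (of at most 36) at an adjusted p under 0.05 with all 12 arrays and with each array left out in turn, for 3 comparisons. Leaving out knockout-labelled sham array 3 raises the counts from 26 to 33, from 10 to 25 and from 5 to 24.

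The response to CLP differed between the genotype labels for 5 members by the test of that difference. The interaction, which subtracts the wild-type response from the knockout-labelled one, was below 0 for Zmynd10 (-1.80 ± 0.44, adjusted p = 0.0429), Rsph4a (-1.73 ± 0.33, 0.0195), Ccdc39 (-1.61 ± 0.33, 0.0254), Tekt4 (-1.45 ± 0.30, 0.0272) and Stk33 (-1.45 ± 0.35, 0.0402). Stk33 would not have passed the filter without the knockout-labelled sham arrays, so its call here is not independent of the filter. Of all probe sets, 2.36% were called below 0 and 1.69% above, a split that median centring turned from 416 above and 579 below to 697 above and 352 below. All 36 members were below 0 (18 at an unadjusted p under 0.05), with a median of -0.87 against -0.07 over all probe sets, except that Dnah9 was above 0 under quantile normalisation and under median centring. In wild type the same 5 genes, none called, had differences of 0.10 ± 0.31, -0.10 ± 0.23, 0.08 ± 0.23, -0.06 ± 0.22 and -0.21 ± 0.25 in that order. The count of 5 rested on single arrays. It was 0 without wild-type sham array 1, wild-type sham array 3, wild-type CLP array 1 or knockout-labelled CLP array 2. It was 1 without wild-type sham array 2, wild-type CLP array 2, wild-type CLP array 3, knockout-labelled sham array 1 or knockout-labelled sham array 2. Leaving out knockout-labelled CLP array 3 gave 3, knockout-labelled CLP array 1 gave 8 and knockout-labelled sham array 3 gave 24.

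After CLP, 2 of 36 members were lower in the knockout-labelled lungs than in wild type, and none was called higher, against 16.9% and 12.6% of probe sets. At an unadjusted p under 0.05 there were 6 lower and none higher. Those called were Rsph4a (-0.77 ± 0.23, adjusted p = 0.0248) and Zmynd10 (-0.98 ± 0.31, adjusted p = 0.0326). The median log2 difference was -0.06 against -0.05 over all probe sets, and 25 members were below 0, or 19 under quantile normalisation and 18 under median centring. The arrays did not overlap for 8 members, none of them higher (background 20.6%) and all lower: Ccdc40, Dnaic1, Dnaic2, Rsph4a, Rsph9, Lrrc23, Dynlrb2 and Wdr78, against a background of 26.5%. For all of these but Rsph9 the 3 knockout-labelled CLP arrays were below all 6 wild-type arrays, a pattern found in 21.8% of probe sets. The count of 2 was 0 without knockout-labelled CLP array 3, wild-type CLP array 1 or wild-type CLP array 3, and 1 without wild-type CLP array 2. It rose to 4 without knockout-labelled CLP array 1 and to 8 without knockout-labelled sham array 3. Without wild-type CLP array 1 the adjusted p was 0.0845 for Rsph4a and 0.124 for Zmynd10. The sham comparison and the CLP comparison within the knockout-labelled groups share the 3 knockout-labelled sham arrays, so their values are not independent.

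The other genes of the ciliary machinery were read from lists of their own. Of 56 other axoneme genes, 47 were on the array and 34 tested. Their median per array was 0.84, 0.999 and 0.12 on the knockout-labelled sham arrays and between -0.32 and -0.08 after CLP. In the knockout-labelled groups 22 fell after CLP and 1 rose, with a median of -0.73, against 18.8% and 10.4% of all probe sets. After sham 9 were called higher than wild type, against 4.48% of all probe sets. The listed genes with the smallest p after CLP were the dynein light chain Dnal1 (-0.87 ± 0.11, adjusted p = 0.000331), Cfap161 (-1.72 ± 0.24, adjusted p = 0.000452), Ttc29 (-1.67 ± 0.26, adjusted p = 0.000884) and the inner arm light chain Dnali1 (-1.35 ± 0.22, adjusted p = 0.000995). Ttc29 read 248, 260.4 and 121 after sham and 67.9, 51.4 and 61.9 after CLP, with sham array 3 between the wild-type values and the other sham arrays. The genes called higher after sham included Cfap61 (2.13 ± 0.30, adjusted p = 0.000689) and Cfap43 (0.91 ± 0.18, adjusted p = 0.00688). Against wild type after CLP, 2 of the 34 were called lower in the knockout-labelled lungs and 3 higher, with a median of -0.06. Of all probe sets, 16.9% were called lower and 12.6% higher.

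Intraflagellar transport carries building blocks along every cilium, motile or not. All 26 genes listed for it were on the array and 24 were tested. Their array medians were 0.36, 0.36 and 0.11 after sham and between -0.43 and -0.12 after CLP in the knockout-labelled groups. After CLP 16 fell, where 18.8% of all probe sets were called lower. The 16 included Ift81 (-1.09 ± 0.15, adjusted p = 0.000511), Ift22 (-0.87 ± 0.13, adjusted p = 0.000635), the kinesin-associated protein Kifap3 (-0.71 ± 0.12, adjusted p = 0.00107) and Wdr19 (-1.28 ± 0.21, adjusted p = 0.00113). After sham 4 were called higher than wild type, against 4.48% of all probe sets. In the comparison of the knockout-labelled lungs with wild type after CLP, 8 of the 24 were called lower and 2 higher, against 16.9% and 12.6% of probe sets. The median was -0.23.

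Of 27 genes of the programme that makes multiciliated cells, 24 were on the array and 18 tested. Here 10 fell after CLP in the knockout-labelled groups, against 18.8% of all probe sets. The transcription factor Rfx3, which controls ciliary genes through the X-box, read 104, 123 and 128 after sham and 38.8, 31.2 and 49.4 after CLP (-1.51 ± 0.22, adjusted p = 0.000630), so its sham array 3 was the highest of that group. Deup1, of the structures that make new centrioles, fell (-1.18 ± 0.23, adjusted p = 0.00322), as did Traf3ip1 (-0.93 ± 0.21, adjusted p = 0.00562) and the transcription factor Myb (-0.89 ± 0.21, adjusted p = 0.00715). The array medians of this list were 0.22, 0.14 and -0.08 after sham. Against wild type after CLP, 5 of the 18 were called lower in the knockout-labelled lungs and 1 higher. Of all probe sets, 16.9% were called lower and 12.6% higher. The median of the list was -0.37.

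Markers of neighbouring cells were read on the same arrays. Of 29 genes of club and secretory airway cells 27 were on the array and 23 tested, with array medians of 0.29, 0.45 and 0.38 on knockout-labelled sham arrays 1 to 3 and between -0.10 and 0.15 after CLP. After sham, 9 were called higher than wild type, against 4.48% of all probe sets. The 9 included the mucosal protein Bpifb1 (1.98 ± 0.29, adjusted p = 0.000857). In the knockout-labelled groups 7 of the 23 fell after CLP and 1 rose, against 18.8% and 10.4% of all probe sets. The median of the list was -0.30, and none of its genes was called in wild type. The part of these cells in the ciliary differences was not tested. The mean signal of the list ran from 3030.4 to 3351 in wild-type sham and from 3374 to 3973 in knockout-labelled sham. Only 3 of 10 basal cell genes were tested, and Krt5, Krt14 and Trp63 were below the filter.

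Heart muscle genes stood apart in the same group. Of 14, 12 were called higher than wild type after sham, against 4.48% of all probe sets. In the knockout-labelled groups 13 were called lower after CLP, against 18.8%. Array medians of the 14 were 1.20, 1.95 and 1.12 after sham and -0.02, 0.34 and 0.91 after CLP. Their mean signal ran from 331 to 381 in wild-type sham, from 849 to 1353 in knockout-labelled sham and from 383 to 665 in knockout-labelled CLP. Actc1, cardiac actin, was higher than wild type after sham (2.58 ± 0.17, adjusted p = 1.26e-06). On sham array 3 the median of the heart muscle genes was 1.12 and that of the motile cilia genes 0.11. Neutrophil genes, 11 of 13 tested, had medians of -0.46, -0.19 and 1.05 on knockout-labelled sham arrays 1 to 3, so the array with the lowest ciliary signals of its group had the highest neutrophil signals. After CLP these medians were between 1.58 and 2.74 in the knockout-labelled group and between 1.61 and 1.72 in wild type, where no motile cilia gene was called. The part of these cells in the ciliary differences was not tested.

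**Figure D5:**
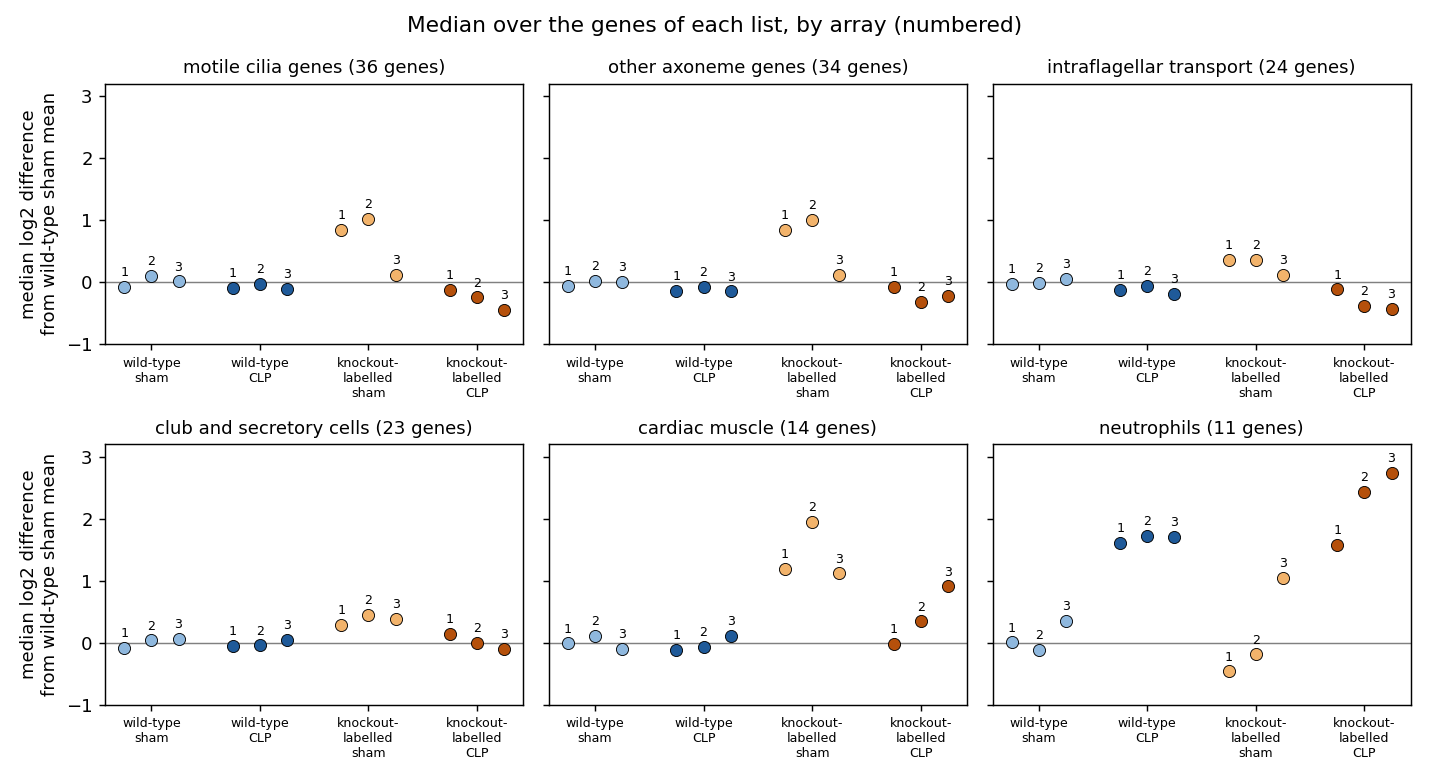
Median log2 difference from the wild-type sham mean over the genes of 6 lists, 1 point per array, numbered by replicate. The 2 axoneme lists are high on knockout-labelled sham arrays 1 and 2 (0.84 to 1.02) and at 0.11 and 0.12 on array 3, the heart muscle list on all 3 (1.12 to 1.95), and the neutrophil list is higher on sham array 3 (1.05) than on arrays 1 and 2.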

How the data were processed

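RNA from 12 whole-lung samples was hybridised to Affymetrix 3′ expression arrays, 1 sample per array, in 4 groups of 3 taken from the labels. Each deposited value is the linear signal intensity of a probe set; GCOS, MAS5 and the Affymetrix Expression Console are named, without versions, in the submitters' processing notes, and steps beyond that are not given in the sources used here. The mean between the lowest 2% and highest 2% of values was equal on all arrays, so the authors had scaled them to a common target.

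From the 45037 probe sets that are not controls (of 45101), the 24574 that exceeded their array's median on 3 or more of 12 arrays were kept. Signals were used as log2(signal + 3.47), 10% of the median of array medians, which understates the change of weak genes. One model with 4 group means was fitted with limma 3.58.1 in R 4.3.3, with an intensity trend in the moderation. P-values were adjusted by Benjamini-Hochberg within each contrast over all probe sets, and calls were made at an adjusted p under 0.05. The number of arrays limits the precision. Members and lists were chosen with earlier results of these data known.

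All members may be named. Statistics are given for called members and up to 3 uncalled ones per role with the highest signal, and other lists name at most 4 called genes per contrast by smallest p. The lists were other axoneme genes, intraflagellar transport, the multiciliation programme, and markers of club and secretory cells, basal cells, heart muscle, smooth muscle, alveolar type 1 and 2 cells, endothelium and neutrophils. Replicate numbers are shared between groups; over 18 pairs of same-numbered arrays the correlation of deviations from group means ran from -0.10 to 0.12, with 2 over 0.1, so the numbers were not taken to pair the arrays. Alternatives were other normalisations, pseudocounts, filters, moderation, array weights, the replicate block, other choices of probe sets, only the groups compared, and each array left out in turn. Promoter windows are from RefSeq, GRCm38.p6. Figures were drawn with matplotlib 3.10.9.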

Additional observations from a re-analysis of the deposited data

Results flagged for a closer look

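For 5 motile cilia genes the response to CLP differed between the genotype labels by the interaction test of limma, in log2 units with the wild-type response subtracted. The differences were -1.80 for Zmynd10, -1.73 for Rsph4a, -1.61 for Ccdc39, -1.45 for Tekt4 and -1.45 for Stk33. All 5 were higher on the 3 knockout-labelled sham arrays than on any wild-type sham array, and all 5 genes' knockout-labelled groups did not overlap. The knockout-labelled response and the sham difference share the 3 knockout-labelled sham arrays. Stk33 would not have passed the filter without these arrays, so its values here are not independent of the filter.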

How the results depend on the processing

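The 5 comparisons were repeated under each alternative. No motile cilia gene was called in wild type in any of them. In the knockout-labelled response to CLP, 26 genes were called; only the 2 groups in the fit gave 13, and leaving out 1 array gave 17 to 33. For the interaction, 5 were called; quantile normalisation gave 3, no filter 3, a filter of 9 arrays 3, array weights 28, and leaving out 1 array 0 to 24. For the sham comparison, 10 were called; array weights gave 29, only the 2 groups 5, and leaving out 1 array 4 to 25. For the comparison after CLP, 2 were called; no filter gave 1, a filter of 9 arrays 1, array weights 8, only the 2 groups 1, and leaving out 1 array 0 to 8. The filter of 9 arrays left Zmynd10 and Stk33 untested, because they exceeded the array median on 7 and 5 arrays. Rsph4a, Ccdc39 and Tekt4 kept their interaction calls under it, and Rsph4a its call after CLP. For the other changes the cause was not tested, except that fewer groups leave fewer arrays to estimate the spread. The interaction needs all 4 groups, so it has no fit on the groups compared. Among single genes, 2114 repeats kept direction and side of the threshold, 332 lost the call, 24 gained one and 6 changed sign. Those 6 are small wild-type differences: Rsph4a at 0.0026 and Tekt4 at 0.0423 under median centring, Tekt4 at 0.0153 under quantile normalisation, and Tekt4 and Zmynd10 with 1 array left out, where Tekt4 ran from -0.138 to 0.0240 (the latter without wild-type sham array 2) and Zmynd10 from -0.0842 to 0.448 (-0.0842 without wild-type CLP array 1, -0.0594 without array 3).

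With the replicate number as a block, the counts were 0 in wild type, 28 in the knockout-labelled response, 3 for the interaction, 13 for the sham comparison and 4 after CLP. The arrays share a number with no sign that they are paired.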

Other observations

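Some readings of the motile cilia genes belong to no comparison above. Spag17, a central pair protein, was near the floor of the array, with signals of 9.82, 5.87 and 12.8 on the wild-type sham arrays, 16.1, 27.2 and 19.6 on the knockout-labelled sham arrays and 5.45 to 8.31 on the knockout-labelled CLP arrays. Iqcg, a nexin link protein, read 52.0, 74.0 and 21.4 on the knockout-labelled sham arrays, 15.4 to 30.4 on the wild-type sham arrays and 16.8 to 25.9 on the knockout-labelled CLP arrays, so it too was highest on sham arrays 1 and 2. Of 16 further probe sets for members, 1 passed the filter: a second Dnaic1 probe set, with a log2 difference of -0.93 ± 0.34 after CLP in the knockout-labelled groups (adjusted p = 0.0548 by limma).

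Alveolar genes were near wild type after sham and lower on 2 of the 3 knockout-labelled arrays after CLP. On knockout-labelled sham arrays 1 to 3 the medians from wild-type sham were -0.05, -0.14 and -0.02 for 11 alveolar type 2 genes and -0.12, -0.01 and 0.05 for 9 alveolar type 1 genes. On knockout-labelled CLP arrays 1 to 3 they were 0.04, -0.24 and -0.23 for type 2 and 0.01, -0.23 and -0.37 for type 1. Of the type 2 genes, 2 were called lower than wild type after sham and 4 after CLP, by limma. Of the type 1 genes, none was called lower after sham and 2 were after CLP. Of all probe sets, 3.86% were called lower after sham and 16.9% after CLP. Smooth muscle genes (9 tested) had 0.30, 0.43 and -0.04, and 6 of them fell after CLP in the knockout-labelled groups. Endothelial genes (10 tested) were at -0.34, -0.35 and -0.41 after sham and between -0.94 and -0.49 after CLP, where 6 fell. Of all probe sets, 18.8% were called lower after CLP in the knockout-labelled groups.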
